A study of Homo sapiens with 6 samples.

Results

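The genes examined were those that encode the subunits of RNA polymerases I, II and III, with their copies and pseudogenes. They were chosen by gene symbol from the deposited count files, as every symbol that begins with POLR1, POLR2 or POLR3 followed by a subunit letter, plus ZNRD1, CD3EAP, TWISTNB and CRCP, which are symbols of further subunits. The rule used no measured value, but it was chosen with earlier results of these data known. It gave 46 gene records with 44 symbols, of 60609 records in all. Of these records, 6 were polymerase I genes, 11 polymerase II genes, 11 polymerase III genes, 2 genes whose products are shared by polymerases I and III and 5 whose products are shared by all the polymerases. The other 11 were pseudogenes or the noncoding POLR2J4 copies.

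The libraries came from K562, an established human leukaemia cell line with erythroid features. In all of them the endogenous EP400, the ATPase subunit of the TIP60 chromatin complex, carries a degradation tag and was removed with 500 nM dTAGV-1 for 24 h, so the controls had lost the endogenous protein too. Cells of the WT group express wild-type EP400 from the AAVS1 locus, and cells of the Delta-TRRAP group express EP400 without the region that attaches the TRRAP module. Each group has 3 libraries of poly(A) RNA, and each line is 1 clone derived from the same tagged clone, so clone and genotype cannot be told apart.

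RNA polymerase I makes the large ribosomal RNA precursor in the nucleolus, RNA polymerase II makes messenger RNA, and RNA polymerase III makes transfer RNAs and other small RNAs. Each enzyme has a pair of large subunits that form the active site, a set of small subunits that all the enzymes use, and stalk and initiation subunits of its own. In proliferating cells the output of polymerases I and III sets the supply of ribosomes and transfer RNAs. Poly(A) RNA measures the messenger RNA of the subunits, not the polymerases or their products.

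The libraries held 35076835 to 42616061 counts in genes. The share of counts in member genes was 0.274% to 0.278% for WT and 0.245% to 0.256% for Delta-TRRAP, and mitochondrial genes took 3.18% to 3.71% and 5.07% to 6.24%. Of 10 markers of K562, 9 had at least 10 counts in every library, the exception being the embryonic globin gene HBE1. The summed counts of 7 fibroblast markers were 67 to 89 for WT and 871 to 1015 for Delta-TRRAP, in Delta-TRRAP most of them COL1A2 and in WT most of them COL1A1 and FBN1, with LUM at 0 in both. For 9 lymphoid and monocyte markers the sums were 8375 to 9724 and 1276 to 1404, most of them LYZ, with MS4A1 at 0. The part of these markers and of the mitochondrial share in the results below was not tested. EP400, the edited gene, ranged over 4924 to 5425 normalized counts for WT and 4350 to 6694 for Delta-TRRAP (log2 fold change 0.11 ± 0.11, SE, edgeR adjusted p 0.354), which adds tagged and transgene transcripts and does not measure the protein.

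To ask how the subunit genes differed between the groups, counts were tested with edgeR over all genes. Of the 46 records, 39 reached a mean normalized count of 5 over the 6 libraries and were tested. Normalized counts are counts scaled to the same effective library size. The 7 untested records were pseudogenes, of which 5 had no count in any library and POLR3DP1 and POLR3GP2 had 5 and 2 counts in all. At a Benjamini-Hochberg adjusted p of 0.01, 15 of the 39 were lower in Delta-TRRAP and 4 were higher, where 28.9% of all 19114 genes tested were lower and 29.6% higher. With a fold change of at least 2 as well, 2 were lower (CD3EAP and POLR3G) and 2 were higher (the pseudogene POLR2CP1 and one POLR2J4 record), where the shares of all genes were 6.34% and 16.2%. POLR2CP1 had no count in WT and reached the count minimum only through its Delta-TRRAP counts. In bulk RNA, fewer cells that express a gene and less RNA per cell cannot be told apart.

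Without the pseudogenes and the POLR2J copies, 32 subunit genes remained, the lowest at a mean normalized count of 807. Of these 32, 15 were lower, 1 was higher and 16 did not pass the adjusted p. Among all 8538 genes whose mean normalized count reached 500, 46.6% were lower and 22.5% were higher by the same test. The share of subunit genes that fell was thus close to that of other well-expressed genes. The share that rose, 1 of 32, was smaller than theirs, a difference that was not tested. Their median log2 fold change was -0.18, and that of the 8538 genes was -0.15. Medians by enzyme are given next as a description, and differences between the classes were not tested. The 6 polymerase I genes had a median of -0.48 and all fell, the 5 genes shared by all polymerases had a median of -0.42 and 3 fell, and the 2 genes shared by polymerases I and III split, with 1 that fell. The 8 polymerase II genes had a median of -0.11 (-0.09 over 11 records with the POLR2J copies), and the 11 polymerase III genes had -0.06. The medians over the 11 records of each class turned positive, at 0.06 and 0.10, when libraries were scaled by size alone. This scaling moved the median of all genes tested by 0.16.

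**Figure D1:**
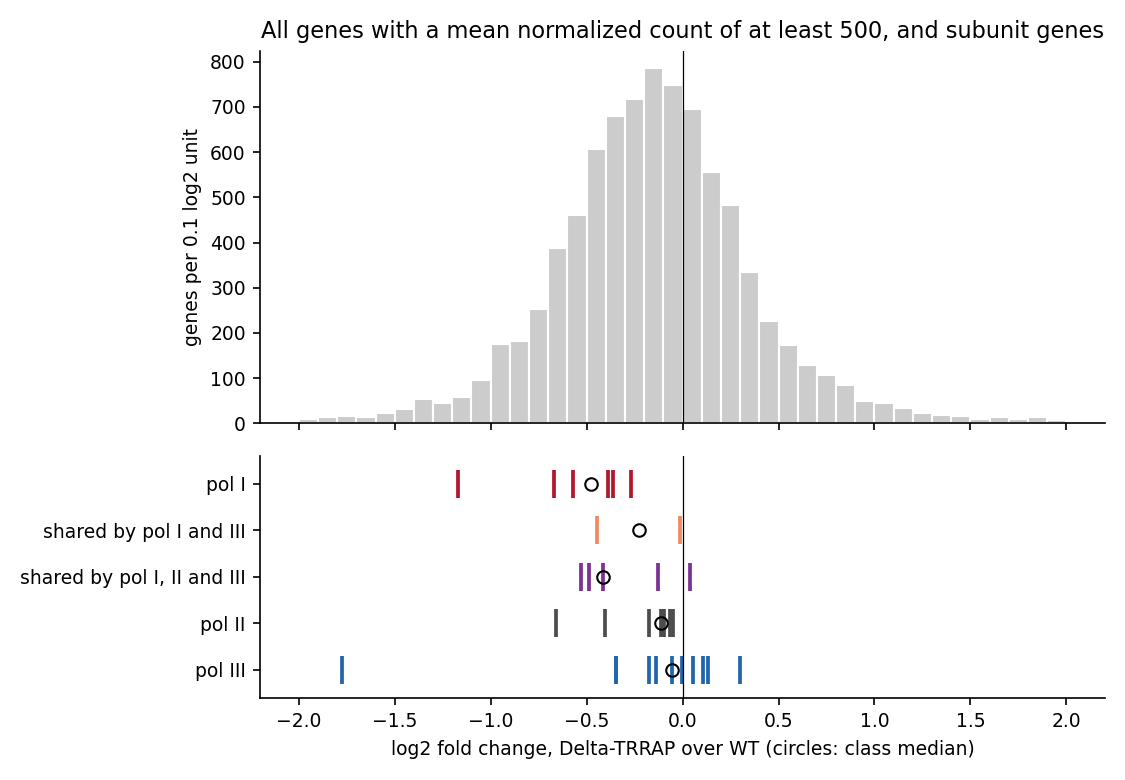
The upper panel is a histogram of log2 fold changes, Delta-TRRAP over WT, of genes whose mean normalized count reached 500 (141 of 8538 lie outside the axis), and the lower panel marks 32 subunit genes by class, without the POLR2J copies, with a circle at each class median. All 6 polymerase I genes lie to the left of 0, while polymerase III genes lie on both sides.

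All 6 genes for subunits found only in polymerase I were lower in Delta-TRRAP, and CD3EAP fell the most, to less than 50% of its WT level. For all 6 genes each Delta-TRRAP library lay below each WT library. Over the 32 subunit genes, groups did not overlap for 19 genes in the lower direction and 2 in the higher, where 35.1% and 36.0% of all genes tested did so. Among the 8538 genes whose mean normalized count reached 500 the shares were 52.2% and 26.5%. The share of subunit genes that did not overlap was thus near that of other well-expressed genes in the lower direction and smaller in the higher direction. These differences were not tested.

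CD3EAP, now named POLR1G (ENSG00000117877.10, GRCh38 chromosome 19, 45406644 to 45410737), encodes a subunit that pairs with the POLR1E product and takes part in initiation. Its normalized counts were 2369, 2485 and 2443 in WT and 1104, 1063 and 1076 in Delta-TRRAP. The WT and Delta-TRRAP libraries were far apart, and the replicates of each group lay close together. This was a fall by 2.25-fold, a log2 fold change of -1.17 ± 0.05 (SE) at an edgeR adjusted p of 2.06e-11. POLR1E, the partner of CD3EAP, fell less, from 4119 ± 71.2 to 3420 ± 60.1 normalized counts (SD, n = 3 each), with a log2 fold change of -0.27 ± 0.05 (SE) and an edgeR adjusted p of 0.000113. Scaled by library size alone, POLR1E had a log2 fold change of -0.11 and no longer passed, at an adjusted p of 0.0491.

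ZNRD1, now named POLR1H (ENSG00000066379.15, chromosome 6, 30058899 to 30064909), encodes the small subunit that takes part in transcript cleavage. Its normalized counts were 1749, 1612 and 1632 in WT and 1067, 973 and 1099 in Delta-TRRAP. All Delta-TRRAP libraries were thus well below the lowest WT library. In edgeR the log2 difference was -0.67 ± 0.06 (SE) at an adjusted p of 8.98e-08. TWISTNB, now named POLR1F, encodes a stalk subunit and fell by 0.57 ± 0.05 (SE) on the log2 scale, from 4925 ± 104.1 to 3314 ± 107.2 normalized counts (SD, n = 3 each), at an edgeR adjusted p of 5.39e-08.

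The pair of large subunits that form the active site of polymerase I fell by less than the subunits above apart from POLR1E. POLR1A, the largest (ENSG00000068654.16, chromosome 2, 86020216 to 86106155), had 5796, 6255 and 6884 normalized counts in WT and 4816, 5629 and 4030 in Delta-TRRAP. The groups came close, with the highest Delta-TRRAP library just below the lowest WT library. In edgeR the log2 difference was -0.39 ± 0.09 (SE) at an adjusted p of 0.00178. DESeq2 gave POLR1A an adjusted p of 0.0336, and scaling by library size alone gave 0.043, both above the threshold. POLR1B, the second largest (ENSG00000125630.15, chromosome 2, 112541915 to 112579818), had 3869, 4195 and 4282 normalized counts in WT and 3174, 3450 and 2973 in Delta-TRRAP. Its libraries were separated by group more clearly than those of POLR1A, and edgeR gave a log2 fold change of -0.36 ± 0.06 (SE) at an adjusted p of 7.33e-05.

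**Figure D2:**
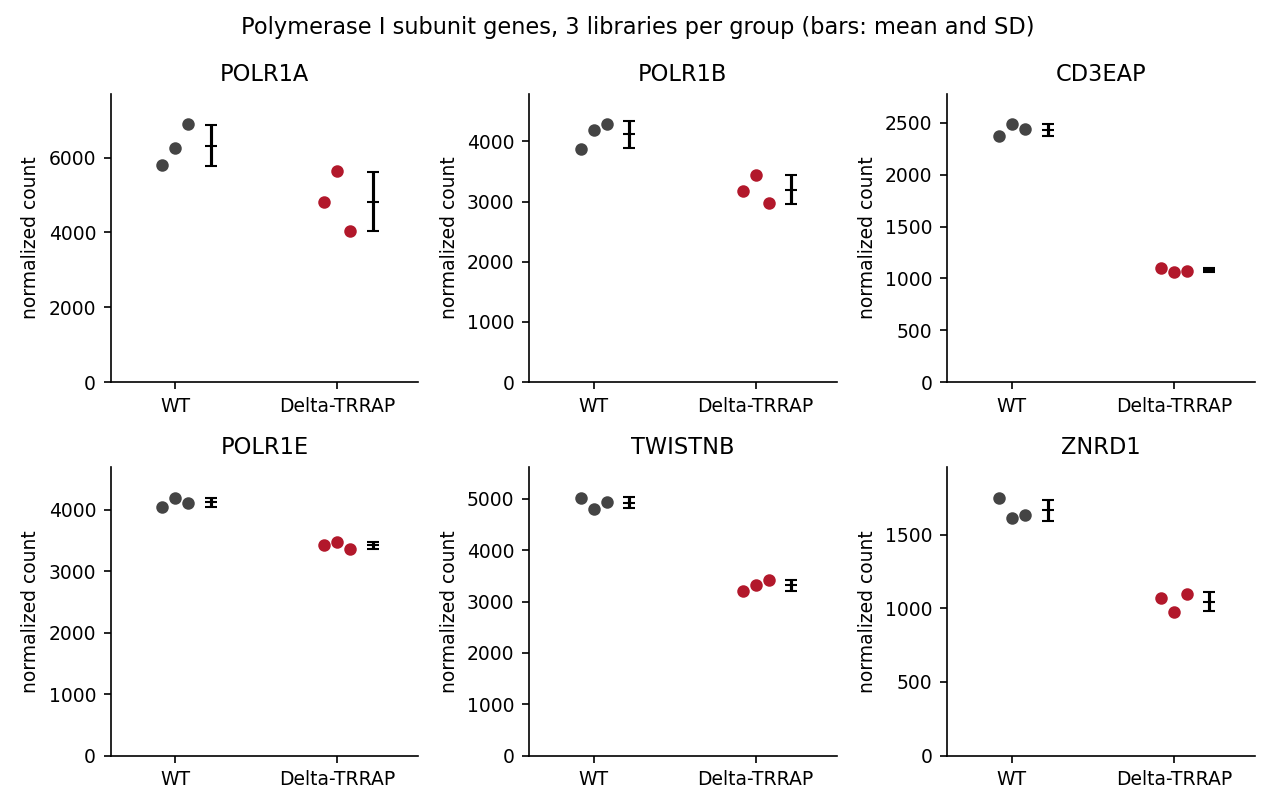
Normalized counts (y axis, from 0) of the 6 polymerase I subunit genes in each of 3 WT and 3 Delta-TRRAP libraries (points), with the mean and SD of each group beside them. In every panel the Delta-TRRAP points lie below the WT points, with the widest gap for CD3EAP and the narrowest for POLR1A when the gap is read relative to the WT level of the gene.

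Subunits common to several polymerases did not move as one. POLR1C and POLR1D encode the partner subunits on which polymerases I and III assemble. POLR1C fell, its normalized counts going from 2789 ± 55.3 to 2051 ± 104.6 (SD, n = 3 each), with a log2 fold change of -0.44 ± 0.05 (SE) and an edgeR adjusted p of 1.98e-06. POLR1D had 3588 ± 173 and 3551 ± 107.4 normalized counts (SD, n = 3 each), a log2 fold change of -0.02 ± 0.05 (SE) and an edgeR adjusted p of 0.809. The partners of this pair therefore had different results, although the difference between them was not tested.

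Of the 5 genes for subunits of all the polymerases, POLR2K, POLR2F and POLR2H fell. POLR2K, which encodes a small zinc-binding subunit, fell by 0.53 ± 0.07 (SE) on the log2 scale, its WT libraries lying at 4746 to 5964 normalized counts and its Delta-TRRAP libraries at 3501 to 3876. POLR2F fell by 0.49 ± 0.07 (SE) and POLR2H by 0.42 ± 0.06 (SE), and the edgeR adjusted p-values of these 3 lay between 9.39e-06 and 1.94e-05. The other 2 did not pass. POLR2E had a log2 fold change of -0.13 ± 0.05 (SE) at an edgeR adjusted p of 0.0244, and POLR2L, another zinc-binding subunit, had 0.04 ± 0.07 (SE) with 0.611.

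Polymerase II genes were mostly within the threshold of the test. Of the 11 records, 2 fell (POLR2I and POLR2B), 0 rose and 9 did not pass the adjusted p by edgeR. Without the POLR2J copies, 2 of 8 fell, 0 rose and 6 did not pass. Among genes whose mean normalized count reached 500, 46.6% fell and 22.5% rose, and the difference was not tested. POLR2A, the largest subunit, which carries the C-terminal repeat domain (ENSG00000181222.16, chromosome 17, 7484366 to 7514616), had 5446, 5365 and 6009 normalized counts in WT and 5351, 5917 and 4323 in Delta-TRRAP. The groups overlapped, and the lowest value came from Delta-TRRAP replicate 3. Among the Delta-TRRAP libraries this one was also lowest for POLR1A, POLR1B, POLR2B, POLR3A, POLR3B and EP400. It had the highest mitochondrial share, 6.24%. Its chi-square per degree of freedom was 15.5 against replicate 2 and 8.59 against replicate 1, and that of replicates 1 and 2 was 5.38. Pairs of WT libraries had 4.93 to 7.43. The cause was not tested. The log2 fold change of POLR2A was -0.11 ± 0.09 (SE), at an edgeR adjusted p of 0.28.

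POLR2B, the second largest subunit (ENSG00000047315.16, chromosome 4, 56977722 to 57031158), had 16694, 16602 and 16881 normalized counts in WT and 12843, 13180 and 11951 in Delta-TRRAP. It was lower in every Delta-TRRAP library, with a log2 fold change of -0.40 ± 0.05 (SE) and an edgeR adjusted p of 4.54e-06. POLR2I, which encodes a small zinc-binding subunit of the active enzyme (ENSG00000105258.9, chromosome 19, 36113709 to 36115213), had 1101, 1167 and 1048 normalized counts in WT and 720.5, 638.9 and 741.4 in Delta-TRRAP. Here too the groups did not overlap. In edgeR the log2 difference was -0.66 ± 0.07 (SE) at an adjusted p of 4.30e-07, and genes around POLR2I were also lower, as given below. The remaining single-copy genes, POLR2C, POLR2D, POLR2G and POLR2M, had log2 fold changes of -0.11 to -0.05 and edgeR adjusted p-values of 0.061 to 0.445. POLR2D and POLR2G encode the stalk, POLR2C an assembly subunit, and POLR2M a protein that associates with the enzyme, and 29.0% of the windows of POLR2M, of 75 bases, also occur in other genes, among them GCOM1.

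POLR2J, which encodes the assembly partner of the POLR2C product, has near-identical copies on chromosome 7. In 75-base windows of its annotated transcript, 28.7% also occurred in transcripts of other genes, and for POLR2J2 the share was 100%. For the POLR2J3 records it was 92.1% and 100%, and for the POLR2J4 records 31.2% and 100%. Because reads with several matches were discarded by the authors, the counts of these genes are uncertain, and part of them may have been counted for another copy.

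POLR2J (ENSG00000005075.15, 102473128 to 102478922) had 1479, 1439 and 1353 normalized counts in WT and 1359, 1097 and 1325 in Delta-TRRAP. These groups overlapped, and edgeR gave a log2 fold change of -0.18 ± 0.07 (SE) at an adjusted p of 0.043. POLR2J2 (ENSG00000228049.7, 102665368 to 102671663) had 32.8, 18.3 and 29.8 normalized counts in WT and 35.2, 40.1 and 43.3 in Delta-TRRAP. Its edgeR adjusted p was 0.0449 and did not pass, although the groups did not overlap.

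For the POLR2J3 record ENSG00000168255.20 the values were 64.5, 54.0 and 43.1 in WT and 65.5, 51.6 and 80.3 in Delta-TRRAP, and for ENSG00000285437.1 they were 80.9, 66.6 and 75.96 in WT and 73.3, 92.6 and 88.7 in Delta-TRRAP. Both overlapped between groups, with edgeR adjusted p-values of 0.221 and 0.269. The POLR2J4 record ENSG00000214783.9, a noncoding copy, had 24.6, 17.4 and 16.4 normalized counts in WT and 47.9, 51.6 and 46.5 in Delta-TRRAP. It rose, with a log2 fold change of 1.32 ± 0.22 (SE) and an edgeR adjusted p of 5.98e-05. The other POLR2J4 record, ENSG00000272655.2, had 76.8, 61.7 and 51.3 in WT and 94.8, 95.5 and 109.8 in Delta-TRRAP, a log2 fold change of 0.66 ± 0.16 (SE) and an edgeR adjusted p of 0.0018, which was 0.0125 without WT replicate 3.

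Together the copies POLR2J2, POLR2J3 and POLR2J4 took 15.9%, 13.2% and 13.8% of the counts of the POLR2J family in WT and 18.9%, 23.2% and 21.8% in Delta-TRRAP. The share was higher in all Delta-TRRAP libraries, with an exact two-sided permutation p of 0.1, the smallest that 3 against 3 libraries allow. Among the pseudogenes, POLR2CP1 on chromosome 21 had no count in WT and 9.78, 11.5 and 13.7 normalized counts in Delta-TRRAP. Set against 3 counts over the WT group, the rise was at least 11.6-fold. The pseudogene reached the count minimum only through its Delta-TRRAP counts, so its edgeR adjusted p of 2.19e-05 is given as a description. Without Delta-TRRAP replicate 2 or 3 it was under that minimum and was not tested. The 8 tested genes within 2 Mb of POLR2CP1 whose mean normalized count reached 100 had a median log2 fold change of 0.90. POLR2KP1 had 18 counts over the libraries of each group and did not pass, at an edgeR adjusted p of 0.982.

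The lowest fold change of all the subunit genes was that of POLR3G, while its paralog POLR3GL did not pass the test. The 2 genes encode alternative versions of the same polymerase III subunit, which belongs to the subcomplex that opens the promoter, and POLR3G is known as the version of stem cells and many tumour cells. POLR3G (ENSG00000113356.12, chromosome 5, 90471748 to 90514557) had 3879, 3720 and 3476 normalized counts in WT and 1066, 1065 and 1103 in Delta-TRRAP. The lowest WT library was more than 3 times the highest Delta-TRRAP library. This was a fall by 3.43-fold, a log2 fold change of -1.78 ± 0.06 (SE) at an edgeR adjusted p of 5.35e-13. Over all alternative tests, scalings and left-out libraries it ranged from -1.83 to -1.62.

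POLR3GL (ENSG00000121851.13, chromosome 1, 145964690 to 145978848) had 978, 1019 and 949.5 normalized counts in WT and 1096, 963.6 and 1172 in Delta-TRRAP. Its groups overlapped, and edgeR gave a log2 fold change of 0.13 ± 0.07 (SE) at an adjusted p of 0.105. The adjusted p was 0.00156 when libraries were scaled by size alone, at a log2 fold change of 0.29, and POLR3GL also passed without Delta-TRRAP replicate 2, at 0.21. Of its 75-base windows, 15.9% were shared with an overlapping annotated gene, against 1.3% for POLR3G, which shares them with a pseudogene.

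Per length of the annotated transcript, POLR3G stood at 28.8 ± 1.59 and POLR3GL at 21.4 ± 0.757 RPKM (counts scaled by transcript length and effective library size) in WT (SD, n = 3 each). In Delta-TRRAP the levels were 8.42 ± 0.169 and 23.5 ± 2.30 (SD, n = 3 each), so by these lengths the order of the pair turned. Of the exon bases of POLR3GL, 21.1% lie in another annotated gene on the same strand. Reads there may have been left uncounted, so the level of POLR3GL may be too low in both groups. The ratio of POLR3G to POLR3GL counts was 3.97, 3.65 and 3.66 in WT and 0.972, 1.10 and 0.941 in Delta-TRRAP, and per transcript length its mean was 1.35 ± 0.0639 and 0.360 ± 0.0312 (SD, n = 3 each). The ratio was lower in all Delta-TRRAP libraries by a factor of 3.74 between the means, with an exact two-sided permutation p of 0.1, the smallest possible for 3 against 3.

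**Figure D3:**
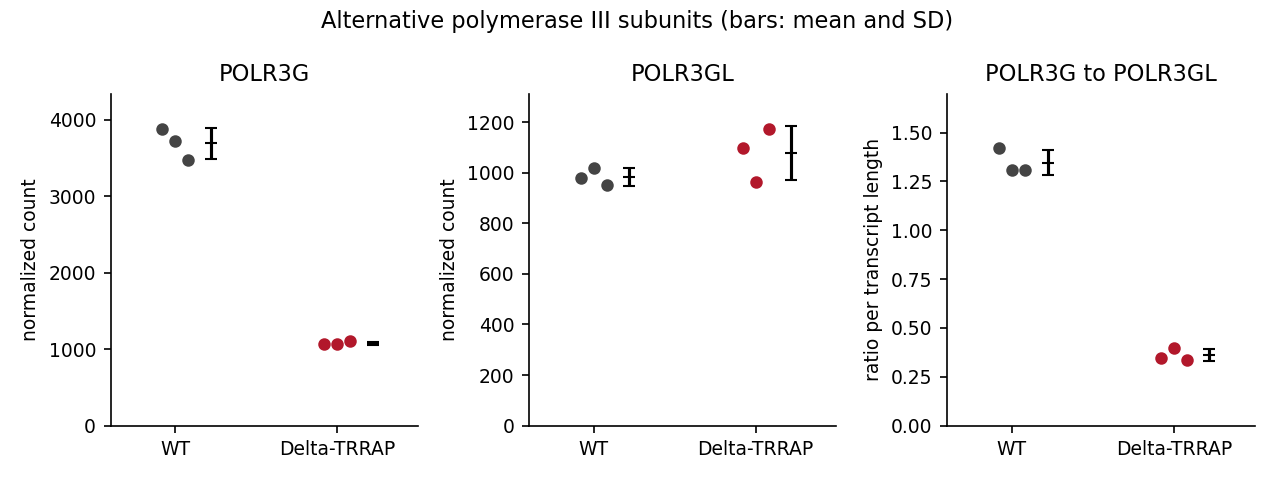
Normalized counts of POLR3G and of POLR3GL (y axes from 0) and the ratio of their levels per transcript length, in each of 3 WT and 3 Delta-TRRAP libraries (points), with the mean and SD of each group beside them. POLR3G goes from at least 3476 to at most 1103 normalized counts, POLR3GL overlaps between groups, and the ratio moves from above 1 to below 0.4.

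The other polymerase III genes moved little and in both directions. Their 10 fold changes had a median of -0.03 on the log2 scale (range -0.35 to 0.30), with 2 that fell, 1 that rose and 7 that did not pass. Among genes whose mean normalized count reached 500, 46.6% fell and 22.5% rose, and the difference was not tested. The active-site subunit POLR3A (ENSG00000148606.13, chromosome 10, 77953148 to 78029522) had 4233, 4308 and 4686 normalized counts in WT and 4582, 4666 and 3966 in Delta-TRRAP. These groups overlapped fully, with a log2 fold change of 0.00 ± 0.06 (SE) and an edgeR adjusted p of 0.99. POLR3B, the second largest (ENSG00000013503.10, chromosome 12, 106357748 to 106510198), had 1401, 1436 and 1398 in WT and 1222, 1362 and 1163 in Delta-TRRAP, lower in each library, but its edgeR adjusted p of 0.0183 missed the threshold. It was 0.00096 without Delta-TRRAP replicate 2.

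POLR3E and POLR3K fell. POLR3E, a subunit needed for initiation and termination, had a log2 fold change of -0.35 ± 0.05 (SE) at an edgeR adjusted p of 7.84e-06. POLR3K, the subunit for transcript cleavage and the counterpart of ZNRD1 and POLR2I, had -0.35 ± 0.06 (SE) with 0.000167, and 0.0136 under scaling by library size. The genes for the cleavage-type subunit of each of the enzymes were thus all lower in the TMM-scaled test. Of the genes whose mean normalized count reached 500, 46.6% fell too, and a shared change of these subunits was not tested. POLR3F was the only one of the 32 subunit genes that rose in the TMM-scaled test, while POLR3C, POLR3D and POLR3GL also passed as higher under scaling by library size. It encodes the subunit that bridges the enzyme to its initiation factors, and went from 723 ± 25.6 to 891 ± 45.4 normalized counts (SD, n = 3 each), a log2 fold change of 0.30 ± 0.06 (SE) at an edgeR adjusted p of 0.000451. POLR3C and POLR3F products form a subcomplex with that of POLR3G, and POLR3C had a log2 fold change of 0.11 ± 0.05 (SE) at an edgeR adjusted p of 0.066, or 0.26 at 0.000214 under scaling by library size, where POLR3D had 0.21 at 0.00264. Further genes, POLR3D and CRCP, had log2 fold changes of -0.14 to 0.06 and edgeR adjusted p-values of 0.0223 to 0.362.

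Upstream sequences of the subunit genes were searched for the E-box, CACGTG, because MYC, which binds it with its partner MAX, is among the factors the study considered. RefSeq promoters on GRCh38.p14 were found for 24 of the member symbols. In the 250 bases before the start an E-box was present in 3 of these 24 genes (12.5%) and in 7.73% of 27305 genes in all. CD3EAP, which fell, and POLR3A and POLR3C, which did not pass the test, are the 3 genes that hold it, and their upstream sequences are printed 5′ to 3′ on the strand of the gene, with the E-box in capitals.
CD3EAP, chr19:45406394-45406643, plus strand: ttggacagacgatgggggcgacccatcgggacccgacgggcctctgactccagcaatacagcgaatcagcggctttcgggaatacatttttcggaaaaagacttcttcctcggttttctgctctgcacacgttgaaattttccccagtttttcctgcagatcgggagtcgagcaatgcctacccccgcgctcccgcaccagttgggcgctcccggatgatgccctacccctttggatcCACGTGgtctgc
POLR3A, chr10:78029516-78029765, minus strand: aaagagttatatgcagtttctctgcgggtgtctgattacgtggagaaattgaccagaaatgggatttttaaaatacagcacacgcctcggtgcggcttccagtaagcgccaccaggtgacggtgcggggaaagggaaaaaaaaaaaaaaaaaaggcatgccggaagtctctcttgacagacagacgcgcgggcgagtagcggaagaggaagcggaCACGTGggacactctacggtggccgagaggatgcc
POLR3C, chr1:145823950-145824199, plus strand: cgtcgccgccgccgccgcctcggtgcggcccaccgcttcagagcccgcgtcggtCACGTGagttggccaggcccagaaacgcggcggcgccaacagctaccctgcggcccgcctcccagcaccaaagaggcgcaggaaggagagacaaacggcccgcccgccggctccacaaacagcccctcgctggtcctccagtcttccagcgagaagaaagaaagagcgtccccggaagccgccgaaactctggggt

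The first base of the E-box lay 12 bases before the start in CD3EAP, 35 bases in POLR3A and 196 bases in POLR3C. POLR3C has 2 promoter entries, and the E-box lay only in the one printed. A match describes these letters and is no measure of binding. No promoter entry was found for POLR3G, POLR3D, POLR1E, POLR2G, POLR2I, POLR2J, POLR2J3, POLR2K and CRCP. On both strands, the ETS motif CCGGAAG was present in 7 of the 24 genes (29.2%, against 10.2% of all genes) and the GC box GGGCGG in 16 (66.7% against 46.2%). The NRF1 palindrome was present in 3 of the 24, namely POLR2F, POLR2H and POLR3B (12.5% against 1.28%). The CCAAT box was found in 6 (25.0% against 37.0%), the TATA box TATAAA in 1 (POLR2M), and the YY1 motif in 0 of 24, against 0.439% of all genes. Among the 5 polymerase I genes with an entry, the E-box, the ETS motif, the GC box and the CCAAT box each occurred in 1. A gene was counted if any of its promoters held the motif. The 27305 genes were not filtered by expression or gene type, so the sets are unlike and these shares do not measure enrichment.

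Each subunit gene was also set beside its neighbours on the chromosome. The median log2 fold change was taken over tested genes within 2 Mb whose mean normalized count reached 100, which gave 4 to 78 neighbours a gene. These medians ranged from -0.39 to 0.24. For CD3EAP it was -0.39 over 78 genes, for POLR2I -0.34 over 59 genes and for POLR3G -0.34 over 6 genes, so all of these lay among genes with a negative median. After subtraction of the neighbours' median, the fold changes were -0.78 for CD3EAP, -0.32 for POLR2I and -1.44 for POLR3G. ZNRD1 and TWISTNB lay among genes with medians of 0.07 and 0.06. For POLR3K the neighbours' median was -0.24, and its fold change after subtraction was -0.11. All 6 polymerase I genes lay below their neighbours, with a median difference of -0.48, as did 3 of the 5 genes shared by all polymerases. Of the polymerase II genes without the copies, 5 of 8 lay below, with a median difference of -0.06, and of the polymerase III genes 6 of 11 did, with a median difference of -0.01. The share of all genes that lie below their neighbours was not counted. The subunit genes had means of 807 or more, so neighbours could be less expressed. The median log2 fold change was 0.01 over all genes tested and -0.15 over those reaching 500, so well-expressed genes tended to be lower. These counts therefore have no matched background.

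**Figure D4:**
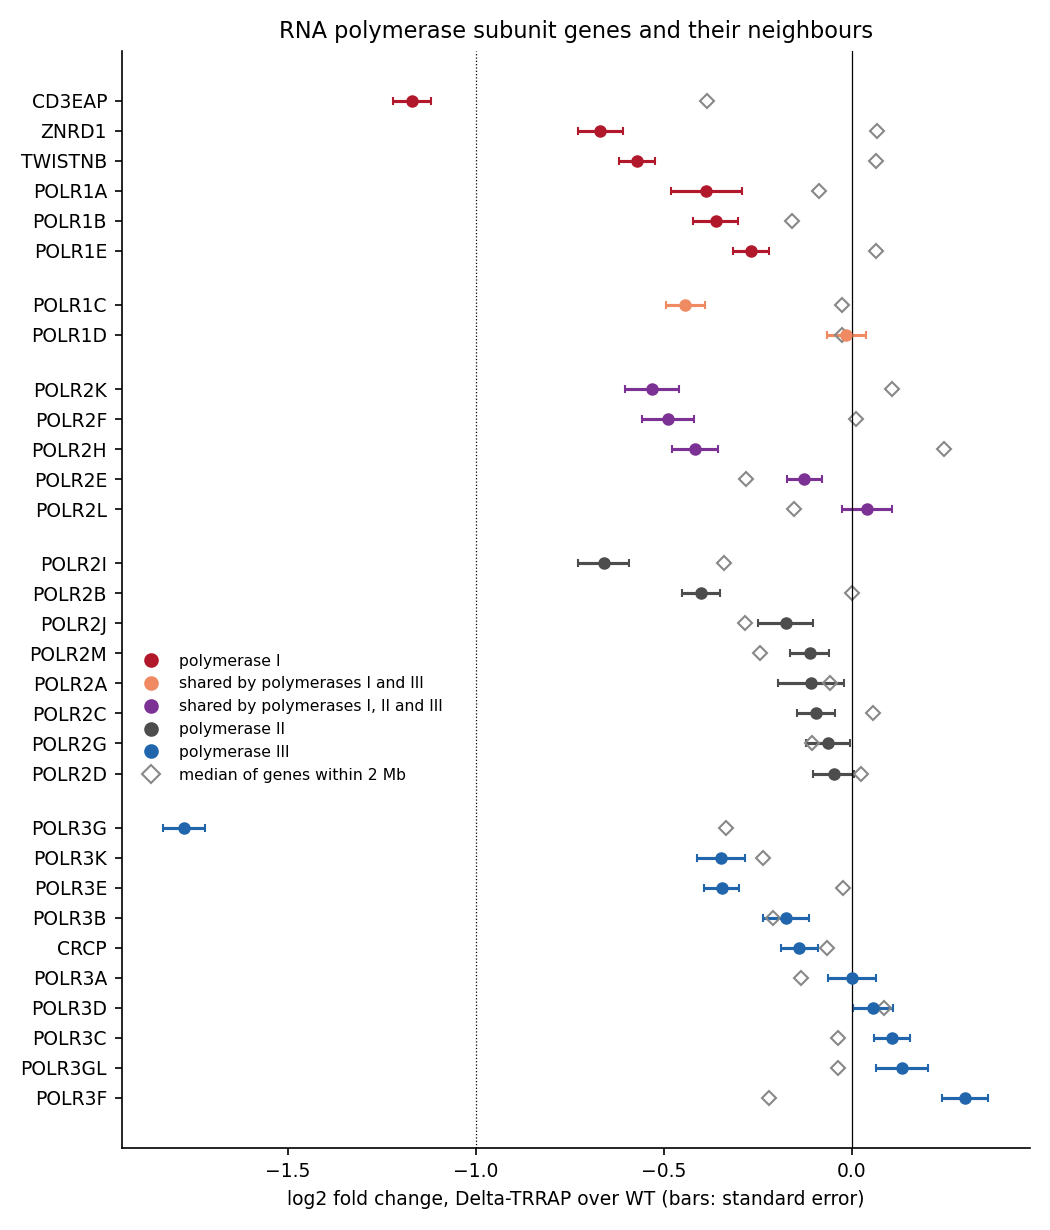
Log2 fold changes, Delta-TRRAP over WT (x axis), of 31 subunit genes (filled points, bars are standard errors), coloured by class, with the median of genes within 2 Mb of each as an open diamond. The dotted line marks a fall to 50%, passed by CD3EAP and POLR3G, and both lie left of their diamonds.

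The factors that act with the polymerases were also examined, from lists written from general knowledge with earlier results of these data known. Their counts stand beside those of the 8538 genes whose mean normalized count reached 500, of which 46.6% fell and 22.5% rose, with a median log2 fold change of -0.15. Of 7 polymerase I factors, which were initiation factors and the termination factor TTF1, 5 fell and 2 did not pass, TTF1 among them. Their median log2 fold change was -0.33. TAF1A (-0.95 ± 0.07, SE) and TAF1D (-0.73 ± 0.06, SE), subunits of the selectivity factor that recruits polymerase I, had the lowest values, and UBTF, which binds ribosomal DNA, had -0.40 ± 0.05 (SE). Adjusted p-values in edgeR for these 3 lay between 5.53e-09 and 2.91e-06.

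Of 18 general factors of polymerase II, 17 were tested, GTF2H4 being listed at 0, and 10 fell while 3 rose, with a median of -0.30, against 46.6% and 22.5% of the well-expressed genes. The lowest values were those of GTF2H3 (-1.44 ± 0.06) and ERCC2 (-0.88 ± 0.06) of the repair and initiation factor TFIIH, and of GTF2E1 (-0.72 ± 0.06) of TFIIE. The rises were GTF2F1 (0.39 ± 0.05), ERCC3 (0.36 ± 0.05), which is also of TFIIH, and TBP (0.19 ± 0.05), all as log2 fold changes with SE. Their edgeR adjusted p ranged from 7.01e-12 to 0.00337.

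Of 16 polymerase III factors, 7 fell, 2 rose and 7 did not pass, with a median of -0.14, near the 46.6% that fell and the median of -0.15 of the well-expressed genes. The lowest values were those of SNAPC1 (-0.77 ± 0.08, SE), SNAPC4 (-0.62 ± 0.06, SE), both of the complex for small nuclear RNA promoters, and BDP1 (-0.66 ± 0.14, SE), a subunit of TFIIIB. In Delta-TRRAP, BDP1 ranged from 638 normalized counts in replicate 3 to 1222 in replicate 2. SNAPC3 (0.57 ± 0.05, SE) and GTF3C1 (0.40 ± 0.08, SE) rose. Of 15 factors for polymerase assembly, 10 fell, 2 rose and 3 did not pass, with a median of -0.47, where 46.6% of the well-expressed genes fell and 22.5% rose. RUVBL2 had a log2 fold change of -0.95 ± 0.05 (SE) and RUVBL1 of -0.47 ± 0.05 (SE), and their products belong both to TIP60 and to the R2TP complex that helps to assemble polymerases. PFDN2 (-0.84 ± 0.07, SE) and RPAP3 (-0.80 ± 0.05, SE) fell, and RPAP1 (0.50 ± 0.05, SE) and UXT (0.21 ± 0.06, SE) rose. The edgeR adjusted p of the genes named in both lists ranged from 3.10e-10 to 0.00397.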

How the data were processed

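RNA-seq counts of 3 WT and 3 Delta-TRRAP libraries were analysed, grouped by sample title. The authors aligned reads to hg38 with STAR, kept reads with 1 match, and counted them per GENCODE release 32 gene with HTSeq 2.0.2 in reverse-stranded union mode, so the deposited values are raw read counts. A deposited table of scaled counts, with 3 columns of another condition, and a table of the authors' own comparison (fold changes and p-values) were not used.

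The test was the quasi-likelihood F test of edgeR 4.0.16 (R 4.3.3), with TMM scaling and group as the only term. It ran on 19114 of the 34998 genes with a count, after a minimum of 5 on the mean normalized count. Benjamini-Hochberg adjustment ran over all of them. A gene was said to fall or rise at an adjusted p of 0.01 or less. Standard errors are the log2 fold change divided by the root of F. The fit was also run on simulated counts, with means and dispersions from these data and far fewer changed genes. This run checked the code and not the results given here. Positions and lengths come from GENCODE release 44 on GRCh38, matched by gene ID, and levels per length use the canonical transcript. Promoters come from RefSeq.

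Values by library are given for genes that passed with a fold change of at least 1.5, for the largest subunit pairs, and for POLR3G, POLR3GL and the POLR2J family. From partner lists, up to 3 rises and 3 falls are named, with RUVBL1 and RUVBL2, and EP400 as the edited gene. The values of 1 subunit gene are not reported here, and it enters counts and medians only. Members and lists were chosen with earlier results of these data known. Nothing in the labels names separate cultures beyond replicates, so p-values measure the spread between these libraries. Same-numbered libraries deviated from their group means with correlations of 0.087, -0.084 and -0.192 over 11462 genes, and were not treated as pairs. Alternatives were DESeq2 1.42.0, limma-voom (limma 3.58.1), other scalings, filters and thresholds, the replicate block, and leaving out each library.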

Additional observations from a re-analysis of the deposited data

How the results depend on the processing

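Subunit genes that fell at an adjusted p of 0.01 numbered 15, and 12 to 16 under every alternative run, with 14 by DESeq2 and 12 under scaling by library size. With a fold threshold of 2, the number called lower was 2 in each of these, and with a threshold of 1.5 it was 4. Genes called higher numbered 0 with a minimum mean count of 50, which leaves out POLR2CP1 and the POLR2J4 record, and 1 to 2 without one library (1 without Delta-TRRAP replicate 2 or 3, where POLR2CP1 was under the count minimum). Genes past the adjusted p alone in the higher direction numbered 7 under scaling by library size and 2 with the minimum of 50. Scaling by library size moved class medians to -0.32 for polymerase I, -0.072 for the genes shared by polymerases I and III and -0.26 for those shared by all polymerases. It moved them to 0.063 for polymerase II, with the POLR2J copies, and to 0.10 for polymerase III. Without one library the medians ranged from -0.54 to -0.45 for polymerase I and from -0.11 to -0.032 for polymerase III. With the replicate block 15 genes fell and 4 rose, and the block changed no call. Over single subunit genes and all alternatives, 506 results kept their direction and their side of the threshold, 24 changed sign in genes that passed the test in neither fit, 5 became weaker (POLR1A by DESeq2 and by library size, POLR1E and POLR3K by library size, and a POLR2J4 record without WT replicate 3) and 5 stronger (POLR3C and POLR3D by library size, POLR3GL by library size and without Delta-TRRAP replicate 2, and POLR3B without that replicate). Signs changed under scaling by library size to log2 fold changes of 0.030 for POLR2E, 0.063 for POLR2C, 0.11 for POLR2D, 0.16 for POLR3A, 0.093 for POLR2G, 0.049 for POLR2A, 0.14 for POLR1D and for POLR2KP1, 0.017 for CRCP and 0.044 for POLR2M. POLR3A had 0.015 by DESeq2 and 0.0064 by RLE scaling, and POLR2KP1 had 0.012 by DESeq2 and 0.035 by limma-voom. Without one library the values spanned 0 for POLR3A (-0.044 to 0.069), POLR2L (-0.0015 to 0.11), POLR2A (-0.21 to 0.0073), POLR1D (-0.055 to 0.016) and POLR2KP1 (-0.23 to 0.35). The causes were not tested. Depth limits records under 20 counts a library, and shared sequence limits the POLR2J copies at any depth.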
